A study of Homo sapiens with 6 samples.

Results

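The activin and TGF-beta genes examined here were INHBA, INHBB, TGFB1 and TGFB2, which encode ligands or ligand subunits, FST and FSTL3, which encode secreted antagonists, TGFBR1 and TGFBR2, which encode receptors, and SMAD3 and SMAD7, which act inside the cell. They were chosen by name, and all 10 were found by their Entrez identifiers among the 23459 genes of the count table. Of these, 8 passed the filter on low counts and were tested. INHBB and FST did not pass it.

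Activins are dimers of inhibin beta subunits, and activin A is a dimer of the protein encoded by INHBA. Activins and TGF-beta ligands bind a type II receptor, which phosphorylates a type I receptor, which in turn phosphorylates SMAD2 and SMAD3. These enter the nucleus with SMAD4 and change transcription. Follistatin and the follistatin-like protein encoded by FSTL3 trap activins outside the cell, whereas SMAD7 blocks the type I receptor. In mammary epithelium, TGF-beta is known for arresting growth and for inducing extracellular matrix genes.

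The study dealt with the interplay of YAP and TAZ with JUN, a subunit of the AP-1 factor, at genes that both regulate. YAP and TAZ are the transcriptional coactivators restrained by the Hippo pathway, and they bind DNA mainly through TEAD factors. TAZ is the product of WWTR1. The libraries described here are 3′ mRNA-Seq of MCF10A, an untransformed human mammary epithelial line grown with horse serum, insulin, hydrocortisone, cholera toxin and EGF. The descriptions of all 6 mark the cells as WT.

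Cells of both groups had been transfected with siRNA at 20 nM. In the siCtrl group (3 libraries) it was a non-targeting control, and in the siYAP/TAZ group (3 libraries) it was directed against YAP and TAZ. No ligand or receptor inhibitor is named in the labels for either group, and the time between transfection and harvest is not given in the sources used here. All libraries come from 1 cell line, and nothing in the labels says whether the replicates were separate cultures, so p-values measure only the spread between these libraries. In 2 libraries the labels disagree on the group. The library described as siCtrl replicate 2 is titled siYAP/TAZ replicate 1. The one described as siYAP/TAZ replicate 2 is titled siCtrl replicate 3. The genotype entries of these 2 libraries also disagree with their descriptions. Replicate numbers differ elsewhere too, since siCtrl replicate 3 and siYAP/TAZ replicate 1 are each titled replicate 2. The description was used for group and number, since it is also the column name of the table. Results below that use the replicate number rest on the description.

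Library totals ranged from 3175149 to 4317286 counts, and 16629 to 17305 genes had at least 1 count. The limit set by a count of 0 was taken as 3 counts, or 0.680 to 0.992 CPM (the count relative to the TMM-scaled size of its library), and it covers counting error only. The targeted mRNAs were at 57.5% (YAP1) and 61.8% (WWTR1) of the siCtrl mean in the siYAP/TAZ libraries, with adjusted p = 0.0138 and 0.0311 by edgeR's quasi-likelihood test, and all 3 siYAP/TAZ libraries lay below all 3 siCtrl libraries for both. With 1 library left out in turn the call of YAP1 was lost in 3 of 6 fits, namely when replicate 3 of siCtrl or replicate 2 or 3 of siYAP/TAZ was dropped, with adjusted p up to 0.112 by edgeR. That of WWTR1 was kept only without siCtrl replicate 2, with adjusted p up to 0.176 otherwise. The groups as described therefore went with the targeted genes.

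The upstream sequences of 3 genes are shown here because INHBA and TGFBR2 carry the differences described below and TGFB2 holds a match to the core motif of the TEAD factors. Each is the 250 bases before a RefSeq transcript start in GRCh38.p14, written from 5′ to 3′ on the gene's strand. That of INHBA lies at chr7:41703091-41703340 on the minus strand, that of TGFBR2 at chr3:30606106-30606355 on the plus strand, before the most upstream of its starts, and that of TGFB2 at chr1:218345086-218345335 on the plus strand. Capitals mark the TEAD core, which here reads CATTCC, the reverse complement of GGAATG, and begins 185 bases before the start.
INHBA: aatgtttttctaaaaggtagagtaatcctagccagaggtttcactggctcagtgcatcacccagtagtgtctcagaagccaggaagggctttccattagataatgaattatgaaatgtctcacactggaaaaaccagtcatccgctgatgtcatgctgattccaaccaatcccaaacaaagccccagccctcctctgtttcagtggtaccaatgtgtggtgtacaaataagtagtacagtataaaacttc
TGFBR2: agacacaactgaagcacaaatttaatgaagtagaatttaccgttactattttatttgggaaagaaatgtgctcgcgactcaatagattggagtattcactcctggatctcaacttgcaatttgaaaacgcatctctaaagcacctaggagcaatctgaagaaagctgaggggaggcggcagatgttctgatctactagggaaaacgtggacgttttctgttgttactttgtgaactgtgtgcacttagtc
TGFB2: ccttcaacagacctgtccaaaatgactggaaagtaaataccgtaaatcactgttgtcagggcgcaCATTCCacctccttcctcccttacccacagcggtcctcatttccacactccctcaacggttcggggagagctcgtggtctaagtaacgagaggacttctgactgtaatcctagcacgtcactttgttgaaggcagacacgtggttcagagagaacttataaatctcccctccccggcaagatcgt

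Promoters of all 10 genes were matched, in 24 windows, since some genes have several starts. GGAATG, sought on both strands, occurred in 2 of these 24 windows, of TGFB2 and TGFBR1, and in 11.9% of the 35116 upstream windows of all genes. The AP-1 core TGACTCA occurred in 1 of the 24 windows, of SMAD3, against 4.2% of all windows. The palindromic SMAD site GTCTAGAC occurred in none of the 24, against 0.182% of all windows. These letters are absent from the printed windows of INHBA and TGFBR2, which says nothing about binding elsewhere.

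In the fit with no term but the group, INHBA was the only member past the threshold of adjusted p under 0.05. Its level was lower after siYAP/TAZ. It encodes the inhibin beta A subunit and lies on chromosome 7 (41706766 to 41745432, minus strand, GRCh37). Its counts were 97, 81 and 91 in siCtrl replicates 1, 2 and 3 and 11, 11 and 7 with siYAP/TAZ, or 27.9, 25.0 and 22.9 CPM against 2.49, 3.64 and 1.90 CPM. Every siYAP/TAZ library was far below every siCtrl library. The mean was 25.2 ± 2.50 CPM (SD, n = 3) in siCtrl and 2.68 ± 0.881 CPM (SD, n = 3) in siYAP/TAZ, so that 10.6% remained, a 9.43-fold lower level. The log2 fold change was -3.25 (SE 0.28, 95% interval -3.88 to -2.61) with adjusted p = 0.00315 by edgeR. In bulk RNA, fewer cells of a type and less RNA per cell cannot be told apart.

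Within replicate numbers, the log2 change of INHBA was -3.48, -2.78 and -3.59. It was called with each of the 6 libraries left out in turn, with adjusted p from 0.000521 to 0.0329 by edgeR. Grouped by the titles instead, the log2 fold change was -0.94 with adjusted p = 0.898, and no gene of the table was called.

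INHBA overlaps INHBA-AS1 (chromosome 7, 41733482 to 41818986), an antisense RNA on the opposite strand. INHBA-AS1 had 41, 19 and 44 counts with siCtrl and 6, 3 and 4 with siYAP/TAZ. Its fitted log2 change was -3.01 (SE 0.42), at adjusted p = 0.0109 by edgeR. This call was lost when replicate 3 of siCtrl or replicate 2 or 3 of siYAP/TAZ was dropped, with adjusted p up to 0.0927. Whether strand was used in counting is not given in the sources used here, so reads of the 2 genes may not be separable. The canonical transcripts overlap by 9175 bases, but the 3′ end of INHBA, where a 3′ library reads, lies 8802 bases outside INHBA-AS1. The 3′ end of the canonical INHBA-AS1 transcript, at 41818986, lies outside the annotated region of INHBA, which ends at 41745432.

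The second subunit gene, INHBB (chromosome 2, 121103712 to 121109379, plus strand), encodes inhibin beta B. It had 0 counts in the 3 siCtrl libraries and in siYAP/TAZ replicates 1 and 2, and 1 count in siYAP/TAZ replicate 3. It was not detectable as expressed at this depth in either group, and no fold is given.

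The TGF-beta ligand genes did not pass the test in either direction. TGFB1 (chromosome 19, 41807492 to 41859827, minus strand) was at 6.32, 5.25 and 5.53 CPM with siCtrl and 4.99, 7.93 and 6.80 CPM with siYAP/TAZ. The groups overlapped, and the log2 fold change was 0.19 (SE 0.30, 95% interval -0.48 to 0.86) with adjusted p = 0.791 by edgeR. It turned to -0.01 with both disputed libraries left out. The annotated region of TGFB1 overlaps HNRNPUL1, CCDC97 and TMEM91 on the opposite strand. HNRNPUL1 had 464, 401 and 522 counts with siCtrl and 559, 347 and 494 with siYAP/TAZ. CCDC97 had 27, 23 and 38 against 42, 13 and 27 counts, and TMEM91 had 30, 29 and 38 against 50, 39 and 51. The canonical TGFB1 transcript ends 5450 bases from CCDC97.

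TGFB2 (chromosome 1, 218518678 to 218617961, plus strand) was at 8.62, 6.79 and 7.79 CPM with siCtrl and 8.61, 5.95 and 4.62 CPM with siYAP/TAZ. Replicate 1 was level in both groups and the other 2 siYAP/TAZ libraries were lower. Its log2 fold change was -0.26 (SE 0.31, 95% interval -0.96 to 0.44), with adjusted p = 0.712 by edgeR. Its antisense gene TGFB2-AS1 had 6, 5 and 8 counts with siCtrl and 11, 5 and 6 with siYAP/TAZ. The log2 ratio of TGFB2 to TGFB1 counts (0.5 added to each), which does not depend on library scaling, differed by -0.49 between siYAP/TAZ and siCtrl, with p = 0.4 by a two-sided exact permutation test, whose smallest possible p is 0.1 with 3 libraries a group.

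Neither activin antagonist was called. FST (chromosome 5, 52776456 to 52782964, plus strand), which encodes follistatin, had 4, 4 and 2 counts with siCtrl and 1, 3 and 3 with siYAP/TAZ. These lie at or near the floor of 3 counts, and the gene was not tested. The log2 ratio of INHBA to FST counts (0.5 added to each) was 4.44, 4.18 and 5.19 with siCtrl and 2.94, 1.72 and 1.10 with siYAP/TAZ. The means differed by -2.69, with p = 0.1 by the exact permutation test, the smallest it can give, and the ratio rests on 4 or fewer FST counts in each library.

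FSTL3 (chromosome 19, 676392 to 683392, plus strand) was at 16.4, 7.10 and 12.3 CPM with siCtrl and 6.80, 8.59 and 8.70 CPM with siYAP/TAZ. The groups overlapped. Among the siCtrl libraries, replicate 2, whose labels disagree, was the lowest, and 1 siYAP/TAZ library, replicate 1, lay below it. A log2 fold change of -0.58 was fitted (SE 0.33, 95% interval -1.31 to 0.15), with adjusted p = 0.389 by edgeR. With the replicate number as a block it was called only when siCtrl replicate 2 or siYAP/TAZ replicate 2 was left out, with adjusted p = 0.0328 and 0.0366 by edgeR. Both of these fits leave replicate 2 of each group without weight, so they are not independent. Over all genes they called 1556 and 1533 lower and 1496 and 1459 higher, where the fit as reported called 152 and 93.

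TGFBR2 was the other member whose groups did not overlap. It encodes the type II TGF-beta receptor and lies on chromosome 3 (30648093 to 30735634, plus strand). It was at 146, 139 and 174 CPM with siCtrl and 80.9, 105 and 108 CPM with siYAP/TAZ, and all 3 siYAP/TAZ libraries were below the lowest siCtrl library. The mean went from 153 ± 18.5 to 97.9 ± 14.8 CPM (SD, n = 3 each), which left 63.8%. The log2 fold change was -0.65 (SE 0.16, 95% interval -1.0 to -0.30) with adjusted p = 0.0690 by edgeR, which missed the threshold. With the replicate number as a block the log2 fold change was -0.65 (SE 0.12) and adjusted p = 0.00868, and DESeq2 gave adjusted p = 0.0202. Within replicate numbers the log2 change was -0.85, -0.41 and -0.69. Without siCtrl replicate 2 the adjusted p was 0.0161 by edgeR, in a fit that called 6.22% of all genes lower and 6.08% higher, and without each other library it was above the threshold, up to 0.291.

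TGFBR1 (chromosome 9, 101866320 to 101916474, plus strand), the type I receptor, was at 24.7, 16.4 and 28.1 CPM with siCtrl and 26.3, 24.5 and 41.9 CPM with siYAP/TAZ. The groups overlapped, and the highest library was siYAP/TAZ replicate 3. The log2 fold change was 0.42 (SE 0.27, 95% interval -0.19 to 1.02) with adjusted p = 0.459 by edgeR, against -0.65 for the type II receptor gene. The difference between the 2 receptor genes was not tested.

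The SMAD genes did not pass the test. SMAD3 (chromosome 15, 67356101 to 67487511, plus strand), which carries the signal to the nucleus, was at 66.3, 63.6 and 71.9 CPM with siCtrl and 63.9, 101 and 88.7 CPM with siYAP/TAZ. Its log2 fold change was 0.33 (SE 0.18, 95% interval -0.07 to 0.73) with adjusted p = 0.373 by edgeR. SMAD7 (chromosome 18, 46446223 to 46477335, minus strand), the inhibitory SMAD, was at 14.4, 10.2 and 8.29 CPM with siCtrl and 12.5, 10.2 and 14.4 CPM with siYAP/TAZ. Its groups overlapped, and its log2 fold change was 0.19 (SE 0.28, 95% interval -0.43 to 0.81) and adjusted p = 0.775 by edgeR.

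**Figure D1:**
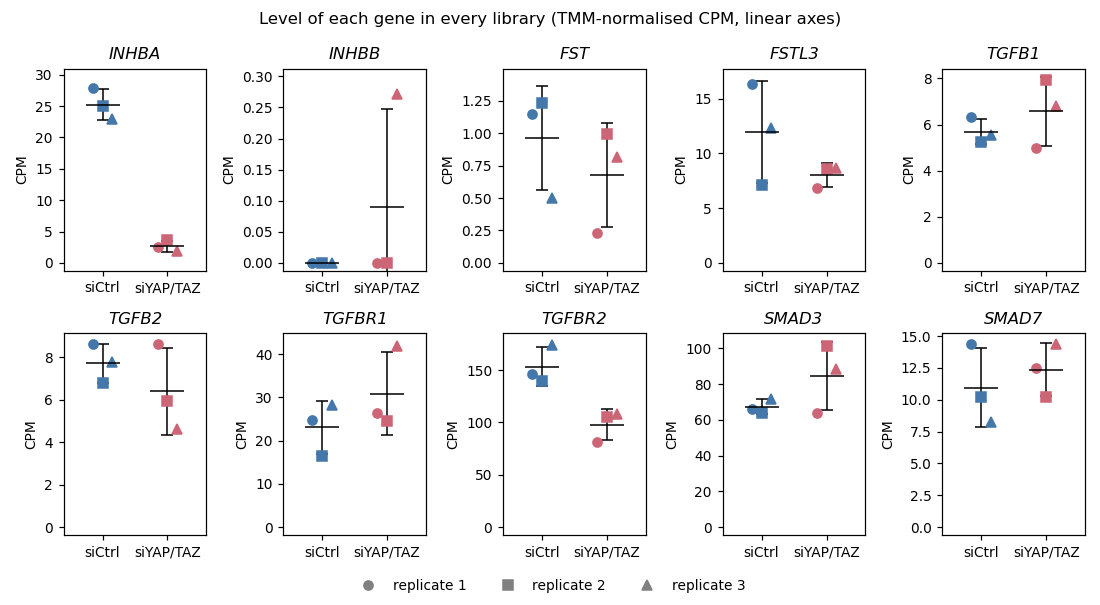
Level of each of the 10 genes in every library, in TMM-normalised CPM on linear axes, by group, with the mean and SD as lines and the replicate number as the marker shape. INHBA and TGFBR2 are the genes whose siYAP/TAZ libraries all lie below the siCtrl libraries, while INHBB and FST stay at 4 counts or fewer.

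Of the 8 members tested, 1 was called lower and 0 higher by edgeR (0 higher also at unadjusted p under 0.05 and by DESeq2). Of all 12510 genes tested, 1.22% were called lower and 0.743% higher. At unadjusted p under 0.05, 2 members were lower, where 9.27% of all genes were lower and 8.40% higher, and DESeq2 called 2 members lower, where it called 2.48% of its genes lower and 1.89% higher. With the replicate block, 2 members were lower (INHBA and TGFBR2) and 0 higher, where 5.44% of all genes were lower and 4.66% higher. The groups did not overlap for 2 members, both lower, against 11.1% of all genes lower and 11.0% higher. The members' fold changes were split evenly, 4 negative and 4 positive, with a median log2 fold change of -0.04 beside -0.00093 over all genes tested.

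**Figure D2:**
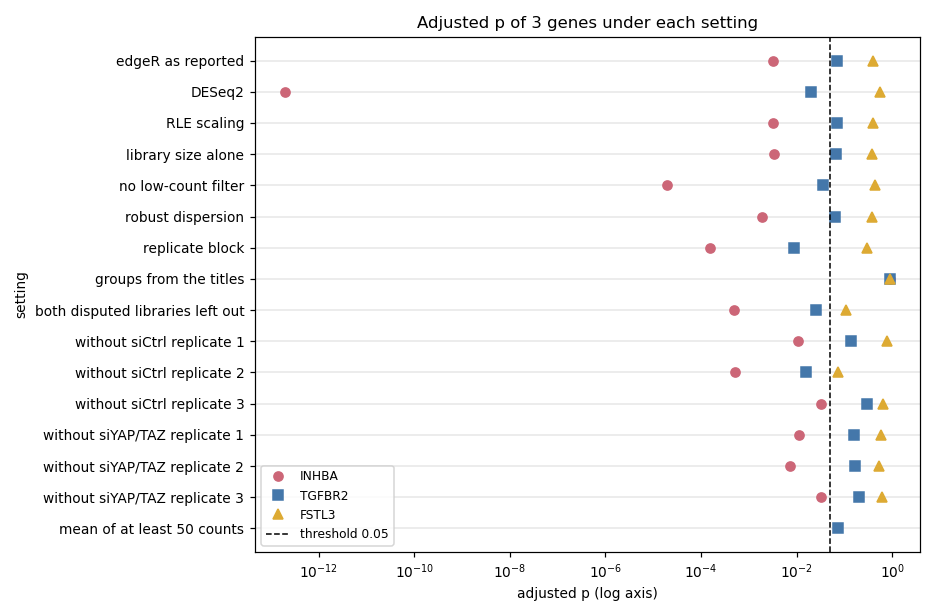
Adjusted p (log axis) of INHBA, TGFBR2 and FSTL3 under each setting of the analysis, with the threshold of 0.05 as a dashed line. INHBA stays left of the line except with groups from the titles (0.898), and has no value at a mean of at least 50 counts. TGFBR2 crosses it between 0.0690 as reported and 0.00868 with the replicate block.

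No other gene of the pathway passed edgeR's test without the block. From a list of 46 by role, 34 were tested, of which 0 were called lower and 0 higher by edgeR (1 lower and 2 higher at unadjusted p under 0.05, and 0 lower and 1 higher by DESeq2). Their median log2 fold change was 0.05. With the replicate block 0 were lower and 2 higher, TGFBR3 and ITGB6, where 4.66% of all genes were higher.

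TGFBR3 encodes betaglycan, a coreceptor that presents TGF-beta to the type II receptor. It was at 24.7, 23.1 and 17.1 CPM with siCtrl and 29.7, 50.6 and 38.6 CPM with siYAP/TAZ, with no overlap. Its log2 fold change was 0.87 (SE 0.24) with adjusted p = 0.0969 by edgeR, 0.0270 with the replicate block, 0.0459 by DESeq2 and 0.0407 without siCtrl replicate 2. The last of these fits called 6.08% of all genes higher, and without each other library adjusted p was above the threshold, up to 0.346 by edgeR. ITGB6, the beta subunit of an integrin that releases TGF-beta from its latent form, was at 29.9, 21.6 and 41.2 CPM against 42.6, 33.4 and 63.4 CPM. Each siYAP/TAZ library of ITGB6 was above the siCtrl library of its number although the groups overlapped. A log2 fold change of 0.58 was fitted (SE 0.28), with adjusted p = 0.318 by edgeR and 0.0308 with the block. Without the block and with 1 library left out in turn, ITGB6 was called in 0 of 6 fits, with adjusted p from 0.296 to 0.749 by edgeR.

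In the other roles, too, the gene with the largest log2 fold change did not pass the test. Among ligands it was GDF11, a relative of myostatin (-0.12, adjusted p = 0.885), with 2 of 8 tested. Among genes for latency and activation it was LTBP2, a matrix protein of the latent TGF-beta binding family (-0.67, adjusted p = 0.566), with 9 of 10 tested. The decoy receptor BAMBI had 0.58 (adjusted p = 0.374) among the 2 of 5 antagonists tested. FOXH1, a DNA-binding partner of SMADs, had 0.81 (adjusted p = 0.292) among the 4 SMADs and adaptors. SKIL, a corepressor that binds SMADs, had 0.48 (adjusted p = 0.336) among the 12 of 13 intracellular inhibitors tested. These adjusted p-values are edgeR's, without the block, and none of these 5 genes was called with it.

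**Figure D3:**
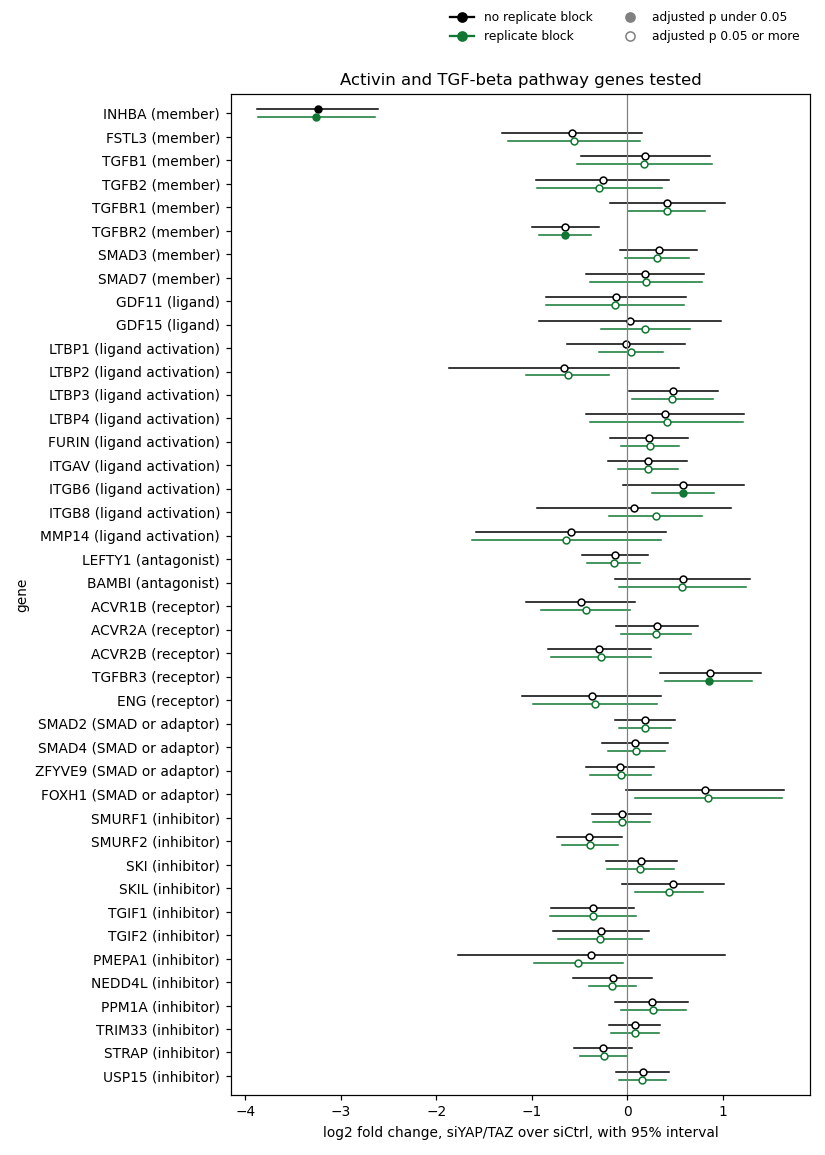
Log2 fold change of siYAP/TAZ over siCtrl with its 95% interval for the 8 members and 34 other pathway genes tested, without (black) and with (green) the replicate block. Filled points have adjusted p under 0.05: INHBA in both fits, and TGFBR2, ITGB6 and TGFBR3 with the block.

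A list of 28 genes known to respond to TGF-beta in epithelial cells was also examined, and 20 of them were tested. By edgeR 1 was called lower, SPARC, and 0 higher, where 1.22% of all genes were lower and 0.743% higher (3 lower and 1 higher of the list at unadjusted p under 0.05, and 3 lower and 0 higher by DESeq2). The median log2 fold change was -0.16. With the replicate block 2 were lower (SPARC and PLAUR) and 2 higher (COL7A1 and LOX), where 5.44% of all genes were lower and 4.66% higher.

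SPARC, a matrix-binding glycoprotein, was at 15.5, 17.3 and 20.4 CPM with siCtrl and 7.48, 7.60 and 7.34 CPM with siYAP/TAZ. The siYAP/TAZ libraries were all lower and close to each other, with a mean of 7.48 ± 0.130 CPM against 17.7 ± 2.45 CPM (SD, n = 3 each). The log2 fold change was -1.24 (SE 0.23) with adjusted p = 0.0304 by edgeR. Without siCtrl replicate 2 adjusted p was 0.0115 by edgeR, and without each other library the call was lost, with adjusted p up to 0.162. PLAUR, the urokinase receptor, was at 40.8, 22.2 and 30.9 CPM against 14.3, 13.9 and 15.5 CPM. Its groups did not overlap, and its log2 fold change was -1.10 (SE 0.24) with adjusted p = 0.0535 by edgeR, 0.00964 with the block and 0.00358 without siCtrl replicate 2. Without each other library it was above the threshold, up to 0.200 by edgeR. The fit without siCtrl replicate 2 called 6.22% of all genes lower and 6.08% higher.

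LOX, which crosslinks collagen, was at 44.5, 113 and 41.7 CPM against 114, 108 and 120.5 CPM. Only siCtrl replicate 2 stood at the siYAP/TAZ level, and adjusted p was 0.257 by edgeR and 0.0457 with the block. Without that library its log2 fold change went from 0.79 to 1.41, with adjusted p = 0.00058 by edgeR. Without each other library LOX was not called, with adjusted p up to 0.582 by edgeR. COL7A1, the collagen of anchoring fibrils, had 2, 1 and 16 counts with siCtrl and 11, 11 and 40 with siYAP/TAZ, with adjusted p = 0.312 by edgeR and 0.0300 with the block. Without the block and with 1 library left out in turn it was called in 0 of 6 fits, with adjusted p from 0.219 to 0.783 by edgeR.

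TAGLN, a smooth muscle actin-binding protein, had 17, 5 and 41 counts with siCtrl and 1, 2 and 3 with siYAP/TAZ. With all 6 libraries it did not pass edgeR's filter, and it had adjusted p = 0.00821 by DESeq2. TAGLN was chosen after its values were seen.

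**Figure D4:**
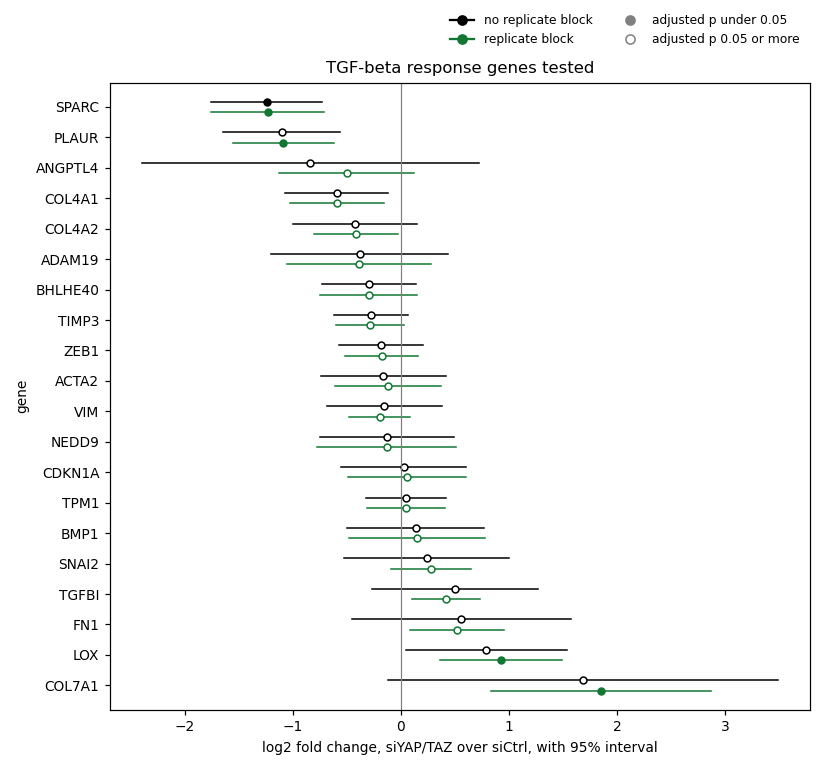
Log2 fold change of siYAP/TAZ over siCtrl with its 95% interval for the 20 TGF-beta response genes tested, without (black) and with (green) the replicate block, ordered by the unblocked value. SPARC is called in both fits, and PLAUR, LOX and COL7A1 with the block, with fold changes on both sides of 0.

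The term for the replicate number itself had adjusted p under 0.05 (edgeR) for 4 of the 20 response genes in the blocked fit (TGFBI, FN1, SNAI2 and ANGPTL4), against 1.81% of all genes. It passed for 3 of the 34 other pathway genes (PMEPA1, LTBP2 and ITGB8) and for 0 of the 8 members. TGFBI, a secreted matrix protein, was at 697, 510 and 904 CPM with siCtrl and 1087, 498 and 1404 CPM with siYAP/TAZ. PMEPA1, an inhibitor of SMAD activation that TGF-beta induces, was at 97.1, 26.5 and 107 CPM against 45.3, 16.5 and 115 CPM. In both of these genes, replicate 2 was the lowest library of each group. Replicate 2 was lowest in both groups for 5 of the 20 response genes and for 19.2% of all genes.

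**Figure D5:**
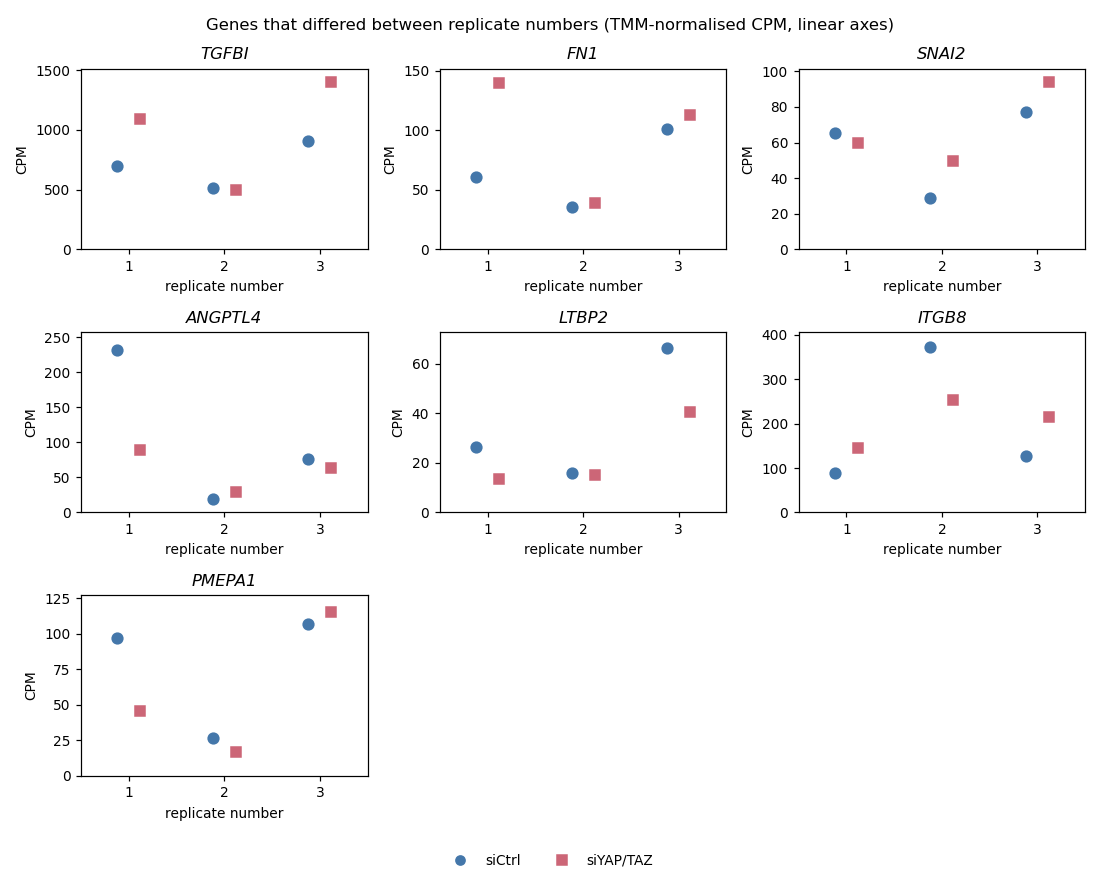
CPM (linear axes) of the 7 response and pathway genes with a significant replicate-number term, by replicate number, with siCtrl as circles and siYAP/TAZ as squares. In TGFBI, FN1, SNAI2, ANGPTL4 and PMEPA1, both libraries of replicate 2 are the lowest of their groups, whereas in ITGB8 they are the highest.

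INHBA-AS1 was left out of the ranking of profiles because it shares the locus. Among the genes outside it, those whose profile over the 6 libraries was most like that of INHBA were CCBE1, ITGB2, CDH4, AOX1 and EPGN. Likeness was the root mean square difference of log2 CPM after each gene was centred, which was 0.456, 0.514, 0.557, 0.613 and 0.649 for these genes, 0.478 for INHBA-AS1, and had a median of 1.55 over the 12508 genes compared. CCBE1, needed for lymphatic growth, was at 57.7, 45.7 and 59.8 CPM with siCtrl and 6.12, 3.97 and 6.53 CPM with siYAP/TAZ. It fell to 10.2% of control where INHBA fell to 10.6%, a closeness that follows from choosing genes by likeness of profile. EPGN, an EGF-family ligand, was at 153, 133 and 145 CPM against 51.4, 34.7 and 31.8 CPM.

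The label of mammary epithelium was checked against 10 markers, all of which were detected and tested. Their summed level was 3934 to 4798 CPM with siCtrl and 3417 to 3978 CPM in siYAP/TAZ. By edgeR 0 were called (2 lower and 1 higher at unadjusted p under 0.05, and 2 lower and 0 higher by DESeq2), and with the replicate block LAMB3, KRT5 and EPCAM were lower and TP63 higher. Fibroblast markers summed to 184 to 224 CPM with siCtrl and 221 to 238 CPM in siYAP/TAZ, with 3 of 10 (COL1A2, COL3A1 and THY1) at 0 counts in every library. PDGFRA made up most of that sum, at 154 to 170 CPM with siCtrl and 155 to 183 CPM with siYAP/TAZ. Within that list DCN, a proteoglycan known to bind TGF-beta, rose with a log2 fold change of 3.15 and adjusted p = 0.00315 by edgeR, and FAP had -2.09 with adjusted p = 0.0875, or 0.000543 with the block. Endothelial markers summed to 6.03 to 8.95 against 8.39 to 16.5 CPM. Among them PECAM1 was at 1.72, 1.23 and 1.01 CPM against 3.17, 9.59 and 4.90 CPM, a log2 fold change of 2.10 with adjusted p = 0.0785 by edgeR, 0.0245 with the block and 0.0406 by DESeq2. Leukocyte markers summed to between 5.74 and 12.03 CPM against 4.08 to 8.92 CPM. Their part in the differences of INHBA and TGFBR2 was not tested.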

How the data were processed

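Libraries of MCF10A cells were made with the QuantSeq 3′ mRNA-Seq FWD kit, which reads the 3′ end of polyadenylated RNA. The authors deposited a table of raw counts by Entrez identifier, without normalisation, with a column for each of the 6 libraries. The submitters' processing notes name cutadapt 4.2, Bowtie2 2.3.5.1 and hg19, and the study's methods, in a section on all its RNA-Seq, name counting of overlaps in R. The gene annotation and the use of strand are not given in the sources used here. The table held 23459 genes, 0 unnamed rows and 0 unused value columns. Symbols came from the RefSeq gene table of GRCh38.p14 (23308 IDs, 99.7% of counts), used for names only. Gene positions are GENCODE 44 lifted to GRCh37, the coordinates of hg19, and promoter sequences are RefSeq's for GRCh38.p14.

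Groups and replicate numbers were taken from the description field. Counts were tested in edgeR 4.0.16 (quasi-likelihood F test; R 4.3.3, limma 3.58.1) after its default filter on low counts, with TMM scaling and no term but the group. P-values were adjusted by Benjamini-Hochberg across the 12510 genes left, which hold 99.5% of all counts. The threshold was adjusted p under 0.05. The study's methods use DESeq2, here an alternative (1.42.0). The test was checked on simulated data. CPM are TMM-normalised and errors are SDs over 3 libraries. Intervals of fold changes come from the fitted value and its F statistic.

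The replicate numbers were checked for pairing. Across genes, each library's deviation from its group mean correlated with that of its namesake in the other group (r = 0.42, 0.35 and 0.13 for numbers 1, 2 and 3). Since all exceeded 0.1, a fit that pairs libraries of the same number was run as an alternative. The results as reported come from the fit without this pairing. The fit with the number as a block is quoted beside a result only if its call differs or a count moves by over 1.5 times.

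Every member was named. Of the other pathway and response genes, those called with or without the block and the gene of each role with the largest change were named, with overlapping genes on the opposite strand and the 5 genes outside the INHBA locus with profiles nearest to that of INHBA. Further names were added after their values were seen. Of the response genes first listed, 2 are not reported here and enter no count of that list. The members and lists were chosen with earlier results of these data known. Alternatives were DESeq2, robust dispersion, RLE scaling or library size alone, testing without the filter or only genes averaging 50 counts or more, the replicate block, groups from the titles, both disputed libraries left out and each library left out. The block with each library left out and the test of the replicate number were added after seeing the data.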

Additional observations from a re-analysis of the deposited data

How the results depend on the processing

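As reported, 152 genes of the whole table were called lower and 93 higher, 1 member lower and 0 higher, 0 other pathway genes in either direction, and 1 response gene lower and 0 higher. RLE scaling and library size alone moved the median log2 fold change by -0.0014 and -0.019 and changed none of the counts over the members and lists. DESeq2 called 328 lower and 250 higher over all genes, 2 members lower, 1 other pathway gene higher and 3 response genes lower. Without the low-count filter the numbers were 299 and 257, 2, 1 and 3 in the same order. With the replicate block they were 680 and 583 over all genes, 2 members lower, 2 other pathway genes higher, and 2 response genes lower and 2 higher. The block changed no other call among the members, pathway genes and response genes. Robust dispersion called 2 response genes lower. A mean of at least 50 counts left INHBA and SPARC untested, so that 0 members and 0 response genes were lower. Without both disputed libraries the calls were 591 lower and 592 higher over all genes, 2 members lower, and 3 response genes lower and 1 higher. With groups from the titles there were 0 and 0 calls over all genes, 0 members lower and 0 response genes lower.

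Leaving out 1 library at a time gave 10 to 798 genes lower and 6 to 781 higher, 1 to 2 members lower, 0 to 3 other pathway genes higher, and 0 to 3 response genes lower and 0 to 1 higher. The highest numbers over all genes came without siCtrl replicate 2. The log2 ratio of INHBA to FST then ranged from -3.20 to -2.28 and that of TGFB2 to TGFB1 from -0.90 to -0.24. The block with 1 library left out, chosen after seeing the data, leaves its partner without weight. Without siCtrl replicate 1, 2 or 3 it called 323, 1556 and 106 genes lower and 266, 1496 and 83 higher. Without siYAP/TAZ replicate 1, 2 or 3 it called 329, 1533 and 70 lower and 258, 1459 and 43 higher. Members lower were 3 without either replicate 2 (INHBA, TGFBR2 and FSTL3) and otherwise 1. Likewise, without either replicate 2, 3 other pathway genes were lower and 10 higher. Without either replicate 1, 1 was higher. Response genes lower were 1, 6 and 0 without siCtrl replicates 1, 2 and 3, and 2, 6 and 0 without those of siYAP/TAZ, and 5 (siCtrl) and 4 (siYAP/TAZ) were higher without replicate 2.

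Directions turned for genes with small changes. The log2 fold change of TGFB1 was -0.21 with groups from the titles, -0.010 without both disputed libraries, and -0.013 and -0.012 in the block without replicate 2 of siCtrl or siYAP/TAZ. That of SMAD3 was -0.15 with the titles, and that of SMAD7 was -0.11 and -0.10 in the block without replicate 3 of siCtrl or siYAP/TAZ. The log2 ratio of TGFB2 to TGFB1 was 0.025 with the titles. INHBA kept its direction in each of its 20 alternatives and its call in 19. TGFBR2 kept its direction in all 21 alternatives and was called in 7, with adjusted p from 1.18e-05 to 0.898 by edgeR or DESeq2, and FSTL3 ranged from 0.0328 to 0.898. The cause of these moves was not tested. Depth limits INHBB, FST and TAGLN, which had too few counts for edgeR's test with all 6 libraries. TAGLN was tested without siCtrl replicate 2, with a log2 fold change of -3.74 and adjusted p = 0.00382 by edgeR. That fit called 6.22% of all genes lower.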

Other observations

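Some activin and TGF-beta pathway genes did not pass edgeR's filter with all 6 libraries. The summed counts of 5 of them differed between the groups, in either direction, but only for ACVR1C did the groups not overlap. These genes were chosen after their values were seen. By DESeq2 SMAD6 had adjusted p = 0.157 and ACVR1C 0.594, and the others had no adjusted p. MSTN, which encodes the activin-like ligand myostatin, had 0, 5 and 0 counts with siCtrl and 6, 11 and 9 with siYAP/TAZ. SMAD6, an inhibitory SMAD that acts mainly on BMP signalling, had 10, 2 and 0 counts against 52, 7 and 10, with most of them in siYAP/TAZ replicate 1. ACVR1C, a type I receptor for activin-like ligands, had 5, 5 and 6 counts against 11, 8 and 14. INHA and INHBC had lower sums with siYAP/TAZ, of 3 counts each against 9 and 6 with siCtrl, but their groups overlapped. INHA had 2, 6 and 1 counts against 1, 1 and 1, and INHBC had 1, 0 and 5 against 0, 2 and 1.

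Among the genes that carried the replicate-number difference, ANGPTL4, a secreted inhibitor of lipoprotein lipase, was at 232, 18.5 and 76.1 CPM with siCtrl and at 88.8, 29.4 and 62.8 CPM with siYAP/TAZ. ITGB8, the beta subunit of a TGF-beta activating integrin, went the other way, at 88.7, 372 and 127 CPM against 145, 254 and 216 CPM.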
